A study of Mus musculus with 53 samples.

Results

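The 10 genes described here encode the transcription factor NF-κB and a set of its inhibitors, and they were followed in bone marrow-derived macrophages (BMDMs) that received the cytokine IL-4. They were chosen by symbol, as the 5 subunits Rel, Rela, Relb, Nfkb1 and Nfkb2 and the 5 inhibitors Nfkbia, Nfkbib, Nfkbie, Nfkbiz and Tnfaip3, out of 23847 loci listed in the tables. All 10 reached 1 FPKM in at least 1 sample, as did 11146 loci in all. Each member overlaps a gene annotated as protein coding.

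The 53 samples were BMDMs of WT or Stat6-/- mice of 8 to 12 weeks of age. The Stat6-/- mice lack the gene in the whole body and are on a C57BL/6 background. Marrow cells of both genotypes were grown for 6 days with L929 supernatant as the source of MCSF, so every group, controls included, carried that factor. The cells then received 20 ng/ml of IL-4 for 1, 3, 6 or 24 h or were kept as controls of the same time, and a further control was taken at 0 h. There were 4 WT samples in each group, with 3 for 24 h of IL-4, and 2 Stat6-/- samples in each group. The study describes its WT data as coming from individual animals, while the labels tie no replicate number to an animal and neither source says so for the Stat6-/- samples. The p-values measure the spread between the samples, which is spread between animals only as far as that description holds.

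NF-κB proteins bind DNA as dimers that the cytoplasmic IκB proteins hold inactive until an upstream kinase marks IκB for degradation. Rela (p65) and Rel (c-Rel) carry the transactivation domains of the canonical arm and pair mostly with p50, the processed product of Nfkb1. Relb pairs with p52, the processed product of Nfkb2, in the non-canonical arm. In macrophages the pathway drives inflammatory genes after Toll-like receptor signals, and several of its own subunits and inhibitors are among its target genes. IL-4 signals instead through STAT6, and the comparison with Stat6-/- cells asks which IL-4 responses need that factor.

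The FPKM values of a sample (fragments scaled by transcript length and by sequencing depth, a level that can be compared between genes) summed to between 385888.9 and 464914.9. The tables give no read counts, and relative depth read from the low loci ranged from 0.707 to 1.55 of the median sample, with medians of 0.935 in WT controls, 1.03 in WT with IL-4, 1.01 in Stat6-/- controls and 1.0 in Stat6-/- with IL-4. Stat6 was at 58.7 to 90.6 FPKM in the WT samples and at 14.3 to 24.0 FPKM in the Stat6-/- samples, so each library fell on the side its label gives. The 6 macrophage markers were all present, with Csf1r at 610 to 1081 FPKM. Of the 5 neutrophil markers, 4 were listed and reached 1 FPKM, and S100a8 was at 80.7 to 478 FPKM. Their sum was 259 to 535 FPKM in WT controls, 191 to 466 FPKM in WT with IL-4, 496 to 934 FPKM in Stat6-/- controls and 527 to 778 FPKM in Stat6-/- with IL-4. No marker of T cells, B cells, fibroblasts or erythroid cells reached 1 FPKM in any sample. Of 3 dendritic cell markers only Ccr7 did, at up to 6.63 FPKM, and of 3 mast cell or basophil markers Mcpt8 and Cpa3 did, at up to 1.45 and 1.02 FPKM. In bulk RNA, fewer cells of a type and less RNA per cell cannot be told apart.

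IL-4 changed these genes in 2 patterns in WT cells, an early and a late one, which shared Nfkbiz, Nfkbia, Nfkbie and Rela. Between 1 and 6 h, Rel and Tnfaip3 rose, Nfkb1 rose from 3 h, and Nfkbiz fell. Nfkbia and Nfkbie also fell at 1 h, and Rela at 3 and 6 h, each by less than 2-fold. None of these smaller falls passed the test in every alternative fit, and that of Nfkbia failed when any 1 WT replicate was left out. At 24 h Rel, Nfkb1 and Tnfaip3 did not pass the test, while Relb, Nfkb2, Nfkbia, Nfkbie and Rela were lower than in controls and Nfkbiz was at its lowest. None of the 10 genes passed the test for IL-4 in Stat6-/- cells at any time. Nfkbib passed it in neither genotype.

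A gene is said here to have risen or fallen where the limma test on log2(FPKM + 1) gave a Benjamini-Hochberg adjusted p under 0.05 over all 11146 loci, and to be called where the change was also at least 2-fold on that scale. At 1 h, 2 of the 10 members were called, beside 1.49% of all loci: Rel up, beside 1.09% called up, and Nfkbiz down, beside 0.395% called down. At that time 2 members rose, beside 5.67% of loci, and 3 fell, beside 3.72%, for 9.39% of loci in both directions. At 3 h the same 2 genes were called, beside 3.88% (2.61% up and 1.27% down), while 3 members rose and 2 fell, beside 28.9% (16.4% and 12.5%). At 6 h they were again the called members, beside 5.54% (3.18% up and 2.36% down), and 3 members rose and 2 fell, beside 41.2% (22% and 19.2%).

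At 24 h, 3 members were called, all down (Relb, Nfkb2 and Nfkbiz), beside 8.5% of loci (3.91% up and 4.58% down). At 24 h 0 members rose and 6 fell, beside 55% of loci that passed (23.4% up and 31.6% down). IL-4 and control samples did not overlap for 6, 6, 6 and 7 members at 1, 3, 6 and 24 h, beside 16.1%, 38.9%, 46.1% and 64.5% of all loci. The share of members that passed was near that of all loci at 6 and 24 h. The median log2 change of the 10 members was -0.20, 0.02, 0.17 and -0.47 at 1, 3, 6 and 24 h, beside -0.02, 0.01, 0.00 and -0.07 over all loci.

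**Figure D1:**
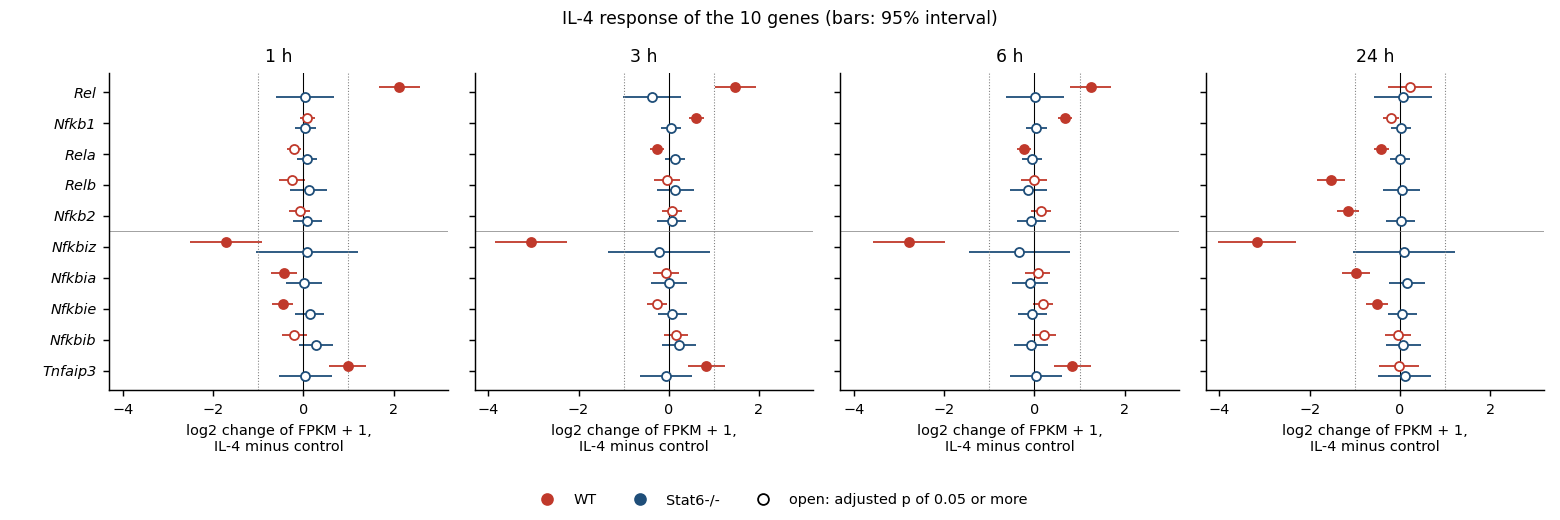
Change of each member with IL-4, as the log2 of FPKM + 1 in IL-4 samples minus that in controls of the same time, with its 95% interval. WT is in red and Stat6-/- in blue, filled points passed the limma test, and dotted lines mark 2-fold. The WT points for Rel lie at 2.12, 1.47 and 1.25 from 1 to 6 h and at 0.23 at 24 h, whereas all Stat6-/- points are open.

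Rel encodes c-Rel (chromosome 11, 23741729 to 23770970, mm10, minus strand). In WT it was at 27.5, 28.9, 17.5 and 20.1 FPKM after 1 h of IL-4, and at 4.57, 3.81, 4.75 and 5.01 FPKM in the controls. The groups lay far apart, with a mean of 23.5 ± 5.57 FPKM (SD, n = 4) against 4.54 ± 0.51 FPKM (SD, n = 4), 5.18-fold higher. The log2 change was 2.12 (95% interval 1.67 to 2.58, limma adjusted p = 1.53e-09).

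The rise of Rel was smaller at the later times. At 3 h the samples were at 15.1, 19.3, 13.4 and 13.4 FPKM with IL-4 and at 5.08, 4.95, 4.67 and 4.54 FPKM without, a log2 change of 1.47 (limma adjusted p = 1.35e-06). At 6 h they were at 18.1, 17.3, 11.03 and 9.72 FPKM against 7.28, 5.12, 4.59 and 3.93 FPKM, a log2 change of 1.25 (limma adjusted p = 1.63e-05). Every IL-4 sample lay above every control at 1, 3 and 6 h. At 24 h the 3 IL-4 samples were at 6.19, 4.92 and 4.93 FPKM and overlapped the controls at 4.27, 6.15, 3.61 and 3.9 FPKM, with a log2 change of 0.23 (95% interval -0.26 to 0.72). In Stat6-/- cells Rel was at 3.74 and 5.41 FPKM after 1 h of IL-4 and at 3.66 and 5.24 FPKM in controls, a log2 change of 0.03 (95% interval -0.61 to 0.67).

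Rel was the lowest of the 10 members in WT at 0 h, and IL-4 moved its place among the subunits. Rela was on average 10.4 ± 1.37 times the level of Rel in WT controls at 1 h (SD, n = 4) and 1.83 ± 0.62 times with IL-4 (SD, n = 4). The share of Rel in the summed FPKM of the 5 subunits was 3.04% to 3.63% in those controls and 11.3% to 20.7% with IL-4, and it was 5.25% to 6.22% after 24 h of IL-4, against 2.32% to 4.51% in controls. These shares are given as a description of transcript levels, with no test.

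Nfkb1 encodes the p105 precursor of p50 (chromosome 3, 135584655 to 135691547, mm10, minus strand). It did not pass the test at 1 h, with 39.0 ± 2.12 FPKM (SD, n = 4) with IL-4 and 36.6 ± 2.36 FPKM in controls (SD, n = 4). At 3 h it rose to 59.6, 54.3, 58.7 and 59.7 FPKM from 38.2, 35.3, 38.9 and 38.7 FPKM in controls (log2 change 0.61, 95% interval 0.45 to 0.77, limma adjusted p = 7.82e-08). At 6 h it was at 59.9, 63.4, 63.0 and 60.4 FPKM against 39.1, 37.0, 39.8 and 37.1 FPKM, which is 1.61-fold higher (log2 change 0.68, limma adjusted p = 5.61e-09). The IL-4 samples lay above all controls at both times, and the samples of a group were close to each other. At 24 h the 3 IL-4 samples were at 36.3, 31.1 and 32.3 FPKM, below the controls at 38.2, 37.8, 39.7 and 36.4 FPKM, but the log2 change of -0.19 missed the threshold (limma adjusted p = 0.056). It passed without WT replicate 2 (adjusted p = 0.040), with only the samples compared (adjusted p = 0.028) and without Stat6-/- replicate 1 or 2 (adjusted p = 0.0073 in both), which enter the pooled spread only. The test of Nfkb1 between 1 and 3 h passed, with its log2 change higher by 0.52 at 3 h (95% interval 0.29 to 0.75, limma adjusted p = 0.0013).

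Rela encodes p65, the main transactivating subunit (chromosome 19, 5637490 to 5648130, mm10, plus strand). Its changes were small and downward. At 3 h it was at 44.6, 34.6, 41.4 and 42.9 FPKM with IL-4 and at 49.7, 47.6, 50.1 and 48.8 FPKM in controls (log2 change -0.26, limma adjusted p = 0.0074), and at 6 h the log2 change was -0.24 (limma adjusted p = 0.012; adjusted p = 0.056 without WT replicate 3). Neither passed by analysis of variance with Tukey's adjustment, which is made over 16 groups and not over loci (adjusted p = 0.082 and 0.17). At 24 h it fell to 34.0, 31.8 and 33.1 FPKM from 46.3, 37.5, 50.1 and 44.3 FPKM (log2 change -0.42, 95% interval -0.58 to -0.25, limma adjusted p = 6.11e-05). The IL-4 samples were below every control at all 4 times. At 1 h the log2 change of -0.21 missed the threshold (limma adjusted p = 0.085). Nfkb1 was at 0.77 ± 0.02 times the level of Rela in WT controls at 3 h (SD, n = 4) and at 1.43 ± 0.1 times with IL-4 (SD, n = 4).

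Relb (chromosome 7, 19606222 to 19629438, mm10, minus strand) and Nfkb2, which encodes the p100 precursor of p52 (chromosome 19, 46304737 to 46312090, mm10, plus strand), form the non-canonical dimer, and both fell late. Through 6 h neither passed the test. At 24 h Relb was at 7.43, 7.82 and 8.44 FPKM with IL-4 and at 27.1, 21.3, 27.3 and 23.3 FPKM in controls, 3.13-fold lower (log2 change -1.53, 95% interval -1.84 to -1.21, limma adjusted p = 1.49e-10). Nfkb2 was at 15.5, 14.1 and 15.1 FPKM with IL-4 and at 38.5, 33.6, 35.2 and 31.3 FPKM in controls, 2.32-fold lower (log2 change -1.16, 95% interval -1.40 to -0.92, limma adjusted p = 2.78e-10). The groups did not overlap for either gene. In Stat6-/- cells at 24 h, Relb was at 21.3 and 21.9 FPKM with IL-4 and at 19.6 and 22.4 FPKM in controls, and Nfkb2 at 30.3 and 32.2 FPKM and at 27.5 and 34.9 FPKM.

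The 5 subunits together summed to 171.8 to 175.1 FPKM per sample in WT after 6 h of IL-4, against 139.9 to 153.7 FPKM in controls. After 24 h the sum was 89.7 to 99.5 FPKM with IL-4 and 136.3 to 156.0 FPKM in controls. The subunit total was therefore above the controls at 6 h, where Rel and Nfkb1 were high, and below them at 24 h.

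**Figure D2:**
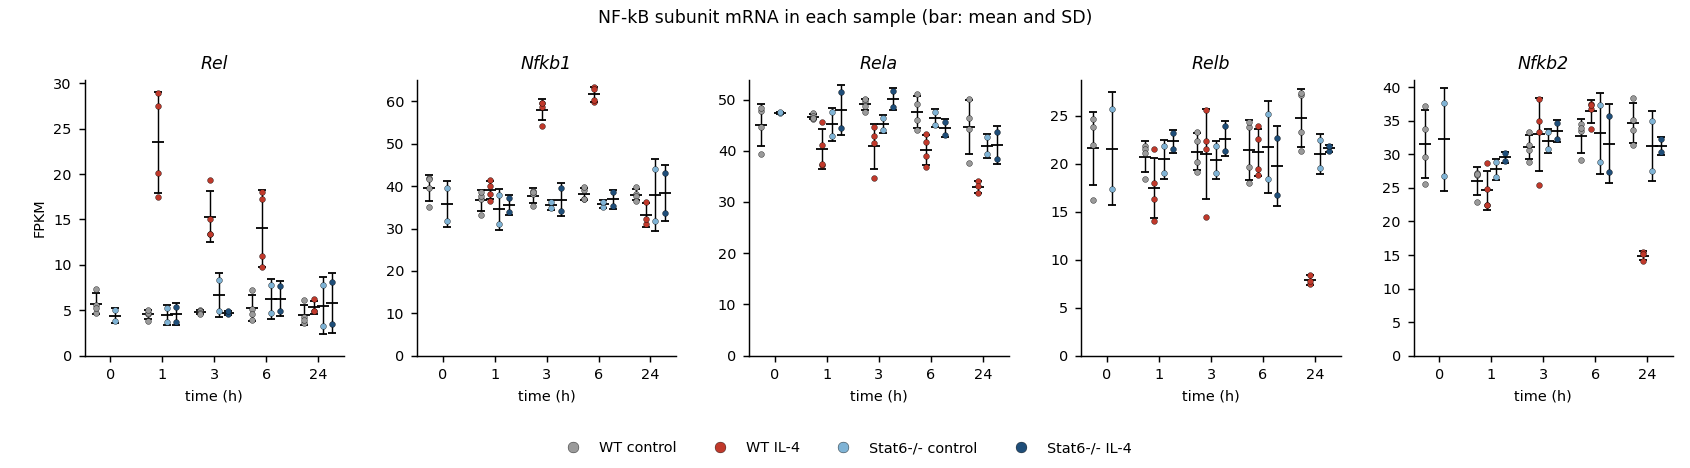
FPKM of the 5 subunits in every sample against time in h. Points are samples, bars show the mean and SD of each group, grey and red are WT controls and WT with IL-4, and pale and dark blue are the same for Stat6-/-. Rel in WT with IL-4 stands at 17.5 to 28.9 FPKM at 1 h, and Relb and Nfkb2 stand at 7.43 to 8.44 and 14.1 to 15.5 FPKM at 24 h in WT with IL-4.

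Nfkbiz encodes IκBζ, an inducible nuclear IκB that acts on NF-κB at its target genes and can activate as well as inhibit (chromosome 16, 55811377 to 55838641, mm10, minus strand). It was the member with the largest fall. In WT it was at 3.78, 3.41, 2.57 and 2.59 FPKM after 1 h of IL-4 and at 15.4, 11.3, 11.9 and 11.1 FPKM in controls, 4.03-fold lower (log2 change -1.72, 95% interval -2.52 to -0.92, limma adjusted p = 0.0019). At 3 h it was at 1.75, 1.46, 1.58 and 1.77 FPKM against 23.5, 20.9, 19.8 and 19.5 FPKM, 12.8-fold lower (log2 change -3.05, limma adjusted p = 5.41e-08). At 6 h the fold was 9.72 (log2 change -2.79, limma adjusted p = 2.52e-07). At 24 h it was at 0.94, 0.76 and 1.03 FPKM against 19.6, 16.6, 17.8 and 11.5 FPKM, 18.003-fold lower (log2 change -3.16, limma adjusted p = 7.62e-08). The IL-4 samples and controls were separate at all 4 times.

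Nfkbiz was also the member that differed most between the Stat6-/- replicates. At 24 h replicate 1 was at 8.34 FPKM in the control and 9.21 FPKM with IL-4, whereas replicate 2 was at 54.9 and 57.4 FPKM. Replicate 2 was higher in 9 of 9 groups, by 1.07 times at 0 h and 1.82 to 6.58 times later. Within a replicate number the ratio of IL-4 to control stayed between 0.733 and 1.10 at the 4 times, while in WT it was 0.043 to 0.302. The labels do not say that a number marks an animal, so these ratios are descriptions. Rel was higher in replicate 2 in 9 of 9 Stat6-/- groups (1.07 to 2.37 times), and Tnfaip3 and Nfkbie were lower in it in 9 of 9 (0.466 to 0.785 times and 0.600 to 0.899 times).

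**Figure D3:**
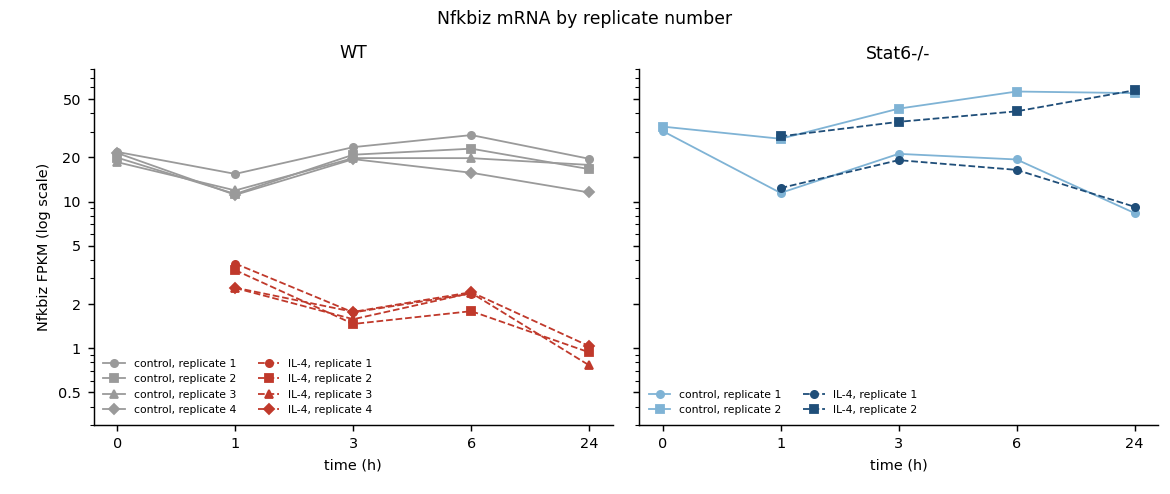
Nfkbiz FPKM on a log axis against time in h, with lines that join samples of one replicate number (the labels do not say that these come from one animal), solid for controls and dashed for IL-4. In WT the IL-4 lines run from 2.57 to 3.78 FPKM at 1 h to 0.76 to 1.03 FPKM at 24 h, and in Stat6-/- the solid and dashed lines of a number lie together while the 2 numbers lie apart.

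Nfkbia encodes IκBα, the classical cytoplasmic inhibitor of Rela dimers (chromosome 12, 55489409 to 55492647, mm10, minus strand). It was the most abundant member in WT at 0 h, at 58.9 ± 8.18 FPKM (SD, n = 4), although its range overlapped that of Rela. After 1 h of IL-4 it was at 37.2, 34.3, 41.7 and 36.3 FPKM against 52.96, 46.8, 51.2 and 50.6 FPKM (log2 change -0.42, limma adjusted p = 0.046). This fall missed the threshold when any 1 WT replicate was left out, with adjusted p from 0.0851 without replicate 2 to 0.24 without replicate 1. The log2 change stayed between -0.47 and -0.40 in these fits. The fall also missed with no filter (limma adjusted p = 0.074), quantile normalization (limma adjusted p = 0.061) and analysis of variance (Tukey adjusted p = 0.19). At 3 and 6 h Nfkbia did not pass the test, with log2 changes of -0.06 and 0.07. At 24 h it was at 27.4, 27.6 and 30.6 FPKM against 58.3, 48.5, 61.5 and 59.7 FPKM, with no overlap (log2 change -0.97, 95% interval -1.28 to -0.67, limma adjusted p = 1.1e-06).

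Nfkbie encodes IκBε, another cytoplasmic inhibitor (chromosome 17, 45555716 to 45563168, mm10, plus strand), and it fell at 1 and 24 h. It was at 8.64, 7.3, 9.61 and 8.31 FPKM after 1 h of IL-4 and at 12.1, 11.1, 11.9 and 12.6 FPKM in controls (log2 change -0.46, limma adjusted p = 0.0038; without WT replicate 4 it missed the threshold, adjusted p = 0.065). At 24 h it was at 14.9, 11.7 and 12.5 FPKM against 20.5, 17.7, 20.8 and 17.1 FPKM (log2 change -0.52, limma adjusted p = 4.4e-04). At both times the groups did not overlap. They did not overlap at 3 h either, where the log2 change of -0.26 missed the threshold (limma adjusted p = 0.078) but passed in 6 of the alternative fits, among them without Stat6-/- replicate 1 or 2 (adjusted p = 0.016 in both). At 6 h the direction was the other one, with IL-4 samples at 20.3 to 21.3 FPKM above all controls at 17.04 to 19.4 FPKM. That log2 change of 0.18 missed the threshold but passed with only the samples compared (limma adjusted p = 0.013). The WT controls themselves were lower at 1 h than at 0 h, where Nfkbie was at 17.6, 13.9, 16.03 and 18.1 FPKM (log2 change -0.42, limma adjusted p = 0.037), the only member to pass that test, beside 2% of all loci. That change missed the threshold when any 1 WT replicate was left out (adjusted p = 0.1 to 0.268).

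Nfkbib encodes IκBβ (chromosome 7, 28758251 to 28766524, mm10, minus strand). Its group means ran from 10.1 to 12.7 FPKM in WT and from 8.94 to 13.8 FPKM in Stat6-/-. The log2 changes with IL-4 in WT were -0.19, 0.15, 0.21 and -0.04 at 1, 3, 6 and 24 h, and their 95% intervals lay between -0.46 and 0.48.

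Tnfaip3 encodes A20, a ubiquitin-editing enzyme that shuts off signalling upstream of the IκB kinase (chromosome 10, 19000910 to 19015410, mm10, minus strand). After 1 h of IL-4 it was at 18.2, 17.998, 15.9 and 14.2 FPKM and in controls at 7.92, 7.01, 7.87 and 8.64 FPKM, 2.11-fold higher (log2 change 0.98, 95% interval 0.57 to 1.40, limma adjusted p = 5.18e-04). At 3 h it was at 16.5, 14.5, 16.2 and 18.4 FPKM against 8.13, 6.72, 9.27 and 11.6 FPKM (log2 change 0.83, limma adjusted p = 0.0015), and at 6 h at 15.2, 16.7, 15.8 and 17.3 FPKM against 8.41, 6.5, 9.97 and 10.2 FPKM (log2 change 0.84, limma adjusted p = 9.14e-04). All IL-4 samples lay above all controls at these 3 times. At 24 h the means were 10.03 ± 0.57 FPKM with IL-4 (SD, n = 3) and 10.3 ± 1.25 FPKM in controls (SD, n = 4), with overlap (log2 change -0.03, 95% interval -0.47 to 0.42).

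The sum of the 5 inhibitors per sample was 0.494 to 0.545 times that of the 5 subunits in WT after 1 h of IL-4 and 0.680 to 0.748 times in the controls. At 24 h the ratio was 0.624 to 0.702 with IL-4 and 0.743 to 0.795 in controls. In Stat6-/- cells at 1 h it was 0.705 and 0.819 with IL-4 and 0.679 and 0.846 in controls. These ratios add transcript levels only.

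**Figure D4:**
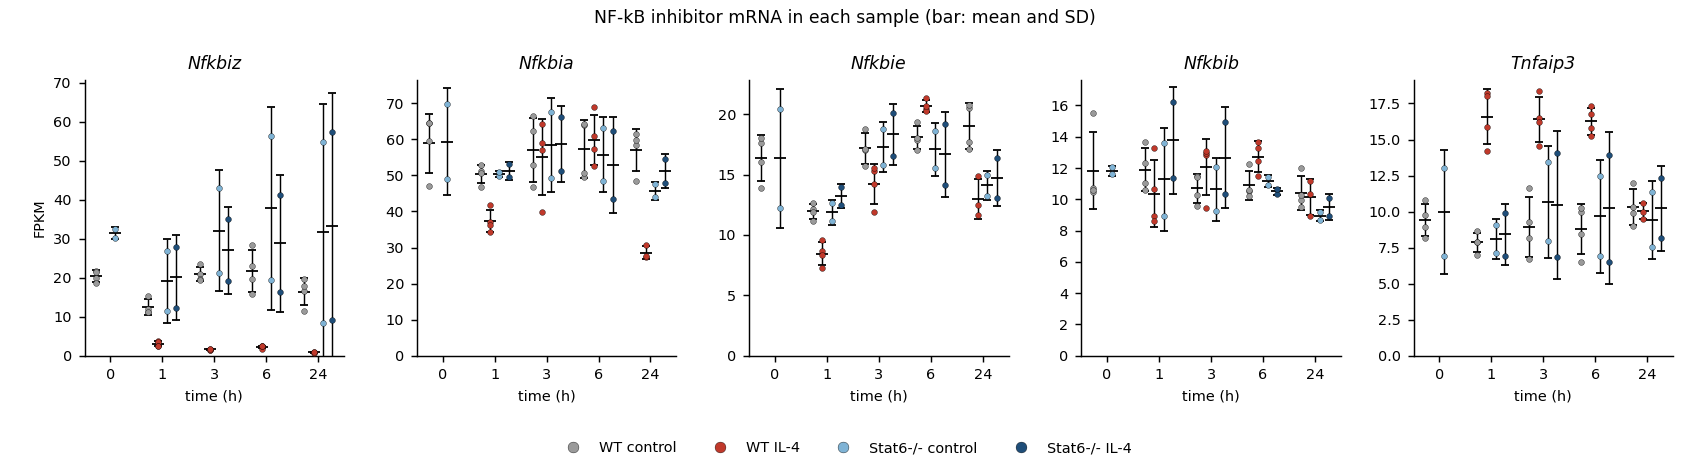
FPKM of the 5 inhibitors in every sample against time in h, drawn as for the subunits. Nfkbiz in WT with IL-4 lies between 0.76 and 3.78 FPKM at all times, Tnfaip3 stands above the controls from 1 to 6 h, and the 2 Stat6-/- replicates of Nfkbiz are far apart.

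The order of levels in WT at 0 h ran from Nfkbia through Rela, Nfkb1, Nfkb2, Relb, Nfkbiz, Nfkbie, Nfkbib and Tnfaip3 to Rel. Only 3 pairs of neighbours in this order were separate over the 4 samples (Nfkb2 above Relb, Nfkbiz above Nfkbie and Tnfaip3 above Rel), and the others overlapped. After 1 h of IL-4 Rel stood next below Nfkb2, which it overlapped, and Nfkbiz was last. After 24 h of IL-4 Nfkb1 and Rela were highest and overlapped, and Nfkbiz was last at 0.91 ± 0.14 FPKM (SD, n = 3).

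The difference between the WT and Stat6-/- responses was tested itself, as an interaction. At 1 h, 1 member was called, beside 1.25% of all loci: Rel, whose log2 change was higher by 2.09 in WT (95% interval 1.30 to 2.88, limma adjusted p = 3.51e-04). At 3 h, 2 were called, beside 3.48%: Rel at 1.85 (limma adjusted p = 6.34e-04) and Nfkbiz at -2.84 (limma adjusted p = 0.0031). Nfkb1 at 0.56 (limma adjusted p = 0.0040) and Rela at -0.41 (limma adjusted p = 0.039) also passed at 3 h, though Rela did not without WT replicate 2, 3 or 4 or either Stat6-/- replicate (adjusted p = 0.059 to 0.173), nor with only the samples compared (adjusted p = 0.070).

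At 6 h, 2 were called, beside 4.41%: Rel at 1.23 (limma adjusted p = 0.023) and Nfkbiz at -2.46 (limma adjusted p = 0.0089), and Nfkb1 passed at 0.63 (limma adjusted p = 8.65e-04). The Rel call at 6 h was lost without WT replicate 1 (adjusted p = 0.051), 2 (0.069) or 3 (0.056), and the Nfkbiz call without WT replicate 2 (adjusted p = 0.055). The value for Rel was 1.12 to 1.28 whichever replicate was left out. At 24 h, 4 were called, beside 6.85%: Nfkb2 at -1.17 (limma adjusted p = 2.24e-05), Relb at -1.57 (limma adjusted p = 1.15e-05), Nfkbia at -1.13 (limma adjusted p = 6.3e-04) and Nfkbiz at -3.26 (limma adjusted p = 5.17e-04). The Nfkbiz call at 24 h was lost when only the samples compared entered the fit (adjusted p = 0.069), as was the Rel call at 6 h (adjusted p = 0.081). Rela (-0.42) and Nfkbie (-0.57) passed at 24 h, but the first was lost without WT replicate 3 or 4 or Stat6-/- replicate 1, and the second without WT replicate 1, 3 or 4 or Stat6-/- replicate 1 (largest adjusted p 0.295 and 0.174). Neither passed with only the samples compared (adjusted p = 0.096 and 0.062).

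Several interactions missed the threshold although the WT response passed. Nfkbiz at 1 h differed by -1.79 (95% interval -3.18 to -0.41, limma adjusted p = 0.21). Without Stat6-/- replicate 1 the value was -1.77 (adjusted p = 3.22e-04), and without replicate 2 it was -1.82 (adjusted p = 2.2e-04). Tnfaip3 differed by 0.94, 0.89 and 0.80 at 1, 3 and 6 h (limma adjusted p = 0.2, 0.11 and 0.13), and without Stat6-/- replicate 1 it passed at all 3 times (adjusted p = 0.03, 0.011 and 0.018). In these fits the remaining Stat6-/- sample of a group is assumed to vary like the other groups.

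The IL-4 test in Stat6-/- cells called 0 of 10 members at each time, beside 0% of all loci, and the smallest adjusted p of a member was 1.0. None of the members had an unadjusted p under 0.05 at any of the 4 times. Of the 11146 loci, 51, 131, 88 and 37 did at 1, 3, 6 and 24 h. Where nothing changes, a share of 0.05 of loci is expected to have such a p, and all 4 counts lie far below it. The test was thus strict in these cells, and the lack of a small p is not by itself a sign of no response. The log2 changes of the members ran from -0.38 to 0.28. For 8 of the 10 members all intervals at the 4 times lay within 1 of zero. For Nfkbiz they reached -1.46 and 1.22, and for Rel -1.02, so these intervals include a change of 2-fold.

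The controls of both genotypes were compared as a mean over the 5 times. No member was called or passed, beside 0.287% and 21.4% of all loci. Of the 11146 loci, 3598 had an unadjusted p under 0.05. The 1 member among them was Nfkbiz (0.53 higher in Stat6-/-, 95% interval 0.09 to 0.96, limma adjusted p = 0.079). This value rested on 1 replicate. Without Stat6-/- replicate 1 it was 1.16 (adjusted p = 8.96e-11) and without replicate 2 it was -0.11 (adjusted p = 0.46). Tnfaip3, at 0.05 (limma adjusted p = 0.83), was at -0.27 without replicate 1 (adjusted p = 0.011) and at 0.36 without replicate 2 (adjusted p = 0.002). Without replicate 1, Rel was also higher (0.39, adjusted p = 0.013) and Nfkbie lower (-0.26, adjusted p = 9.27e-04) in Stat6-/- controls. The neutrophil marker sum was higher in Stat6-/- controls, as given above, and its part in these values was not tested.

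By the number of members called, the WT response changed mainly between 6 and 24 h. From 1 to 3 h, 0 of 10 members were called, beside 1.61% of all loci, and from 3 to 6 h 0 were called, beside 0.449%. The change of Nfkbiz was lower by -1.33 at 3 h than at 1 h and missed the threshold (limma adjusted p = 0.13), but it passed without Stat6-/- replicate 1 (adjusted p = 6.77e-06) or replicate 2 (adjusted p = 6.8e-06), whose values enter the pooled spread only. The change of Rel moved by -0.65 from 1 to 3 h, which missed the threshold but passed with only the samples compared (limma adjusted p = 0.035). Over these 2 steps 3 members and 1 member had an unadjusted p under 0.05, beside 2476 and 1354 of the 11146 loci. From 6 to 24 h, 4 members were called, beside 6.06%, each with a lower log2 change at 24 h: Nfkb2 by -1.31, Rel by -1.03, Relb by -1.51 and Nfkbia by -1.04 (limma adjusted p = 6.13e-08, 0.017, 4.98e-07 and 1.39e-04). Nfkb1 (-0.87), Nfkbie (-0.70) and Tnfaip3 (-0.87) passed as well. With quantile normalization or with median scaling, 2 members were called for this step in place of 4. Rel missed the threshold without WT replicate 2, 3 or 4 (adjusted p = 0.067 to 0.126). Tnfaip3 missed it when any 1 WT replicate was left out (adjusted p = 0.086 to 0.155). The neutrophil marker sum was 396 to 535 FPKM in WT controls at 24 h and 191 to 280 FPKM with IL-4, beside 270 to 391 FPKM and 297 to 371 FPKM at 6 h, and its part in the 24 h falls was not tested.

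The promoter windows of 4 members, a pair that rose early and a pair that fell at 24 h, are shown because a κB site in the promoter of a subunit or inhibitor gene is how NF-κB is known to act on its own components. They come from RefSeq on GRCm38.p6, each with 250 bases before and 50 bases after a start site, and 7 of the 10 members had at least 1 window, 10 in all (3 for Nfkb2 and 2 for Tnfaip3). Nfkb1, Relb and Nfkbiz were without one. The windows of Nfkbie, Rela and Nfkbib and the further ones of Nfkb2 and Tnfaip3 were searched but are not printed. Capitals mark matches to the κB consensus on either strand, and adjoining matches can overlap.
Rel, which rose early (chr11:23770920-23771219, minus strand): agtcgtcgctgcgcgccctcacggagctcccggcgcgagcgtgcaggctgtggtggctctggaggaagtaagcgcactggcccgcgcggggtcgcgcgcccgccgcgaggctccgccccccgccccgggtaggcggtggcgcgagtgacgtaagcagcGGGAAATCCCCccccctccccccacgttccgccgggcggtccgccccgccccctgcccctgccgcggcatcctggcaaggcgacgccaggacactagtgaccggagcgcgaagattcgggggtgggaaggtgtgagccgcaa
Tnfaip3, which rose early (chr10:19015361-19015660, minus strand): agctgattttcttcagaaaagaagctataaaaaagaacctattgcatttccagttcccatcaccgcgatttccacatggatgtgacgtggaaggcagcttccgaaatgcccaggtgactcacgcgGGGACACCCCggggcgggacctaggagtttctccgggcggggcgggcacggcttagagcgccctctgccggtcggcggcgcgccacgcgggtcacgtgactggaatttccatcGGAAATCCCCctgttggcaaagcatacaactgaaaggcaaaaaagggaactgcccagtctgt
Nfkb2, which fell at 24 h (chr19:46304487-46304786, plus strand): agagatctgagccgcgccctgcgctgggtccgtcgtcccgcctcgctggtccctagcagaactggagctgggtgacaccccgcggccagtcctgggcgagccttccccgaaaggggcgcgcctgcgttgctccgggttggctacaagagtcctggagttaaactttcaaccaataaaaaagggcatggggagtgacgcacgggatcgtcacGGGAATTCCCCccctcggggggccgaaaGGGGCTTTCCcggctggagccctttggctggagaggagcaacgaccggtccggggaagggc
Nfkbia, which fell at 24 h (chr12:55492598-55492897, minus strand): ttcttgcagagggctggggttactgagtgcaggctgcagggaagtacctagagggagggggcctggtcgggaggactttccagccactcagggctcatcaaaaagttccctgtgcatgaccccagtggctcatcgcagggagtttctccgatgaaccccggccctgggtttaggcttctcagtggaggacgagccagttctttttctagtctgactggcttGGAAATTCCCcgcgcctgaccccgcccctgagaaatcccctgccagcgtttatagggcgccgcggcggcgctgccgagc

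The κB consensus was matched in 7 of the 10 member windows, belonging to Nfkb2, Nfkbia, Nfkbie, Rel and Tnfaip3, and in 4.51% of the 32851 windows in the table. The other two Nfkb2 windows overlap each other and share a match, which counts in both. Counted from the start site, with the base before it as -1, the Rel window held overlapping matches from -92 to -82, the Tnfaip3 window matches from -125 to -116 and from -12 to -3, and the Nfkbia window 1 match from -29 to -20. The Nfkb2 window held overlapping matches from -39 to -29 and another from -11 to -2. Members with a match included genes that rose and genes that fell, and the windows of Rela and Nfkbib held none. The STAT6-type motif, TTC and GAA with any 4 bases between them, which reads the same on both strands, was matched in 1 member window, that of Tnfaip3 from -242 to -233, and in 6.95% of all windows. The form with any 3 bases between TTC and GAA was matched in 1 member window, the first of Nfkb2 from -148 to -140, and in 8.3% of all windows. A match describes letters in these windows and is not a bound site.

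The patterns of the members were compared pair by pair over the 18 group means of log2(FPKM + 1), which share the libraries and the scale. Rel and Tnfaip3 had a Pearson correlation of 0.93 across these means. Nfkb2 had 0.93 with Relb and 0.93 with Nfkbia, and Relb and Nfkbia had 0.88. Rela had 0.77 with Nfkbiz, 0.76 with Relb and 0.76 with Nfkbia, and Nfkb1 had 0.77 with Tnfaip3. Nfkbiz was opposed to Tnfaip3 at -0.70 and to Rel at -0.67. Outside the 10 genes, the patterns most like Rel were those of Zc3h12c (0.98), Zfp459 (0.96) and Btbd3 (0.96), and most like Nfkbiz those of Gucd1 (0.97), Otud1 (0.97) and F630028O10Rik (0.96). Nfkb2 was most like Sh3bp1 (0.96), Rrad (0.95) and Zdhhc1 (0.94), and Relb most like Psap (0.96), Mdp1 (0.95) and Zdhhc1 (0.95).

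Other genes of the pathway were taken from 6 lists. Of the 3 further IκB family genes, Bcl3, a nuclear IκB that binds p50 and p52, fell at 1 h and was at 4.03 ± 0.92 FPKM with IL-4 against 13.01 ± 1.93 FPKM in controls (SD, n = 4 in both; log2 change -1.49, limma adjusted p = 2.6e-06), and its interaction was -1.87 (limma adjusted p = 0.0013). At 1 h, 0 of the 3 rose and 2 fell, beside 5.67% and 3.72% of all loci, and at 24 h 1 rose and 2 fell, beside 23.4% and 31.6%. The median log2 change of the list at 24 h was -0.60, beside -0.07 over all loci.

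Among 12 genes of the IκB kinase complex and the kinases upstream of it, 3 rose and 1 fell at 1 h, beside 5.67% and 3.72% of all loci. At 24 h 0 rose and 8 fell, beside 23.4% and 31.6%, with a median log2 change of -0.30, beside -0.07 over all loci. Map3k8, a kinase bound by p105, was at 34.6 ± 1.82 FPKM with 1 h of IL-4 against 15.5 ± 1.59 FPKM without (SD, n = 4 in both) and so rose (log2 change 1.11, limma adjusted p = 7.53e-14). Map3k14, the kinase NIK that drives processing of p100, fell at 24 h from 13.4 to 5.53 FPKM (log2 change -1.14, limma adjusted p = 8.39e-14). Ikbke, an IκB kinase relative, fell at 24 h from 43.5 to 12.6 FPKM (log2 change -1.71, limma adjusted p = 6.02e-12). The interactions of these 3 genes passed at the same times (1.10, -1.11 and -1.72).

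Of 19 adaptors, 2 rose and 8 fell at 24 h, so that about as large a share passed as of all loci (55%, with 23.4% up and 31.6% down). Their median was -0.27, beside -0.07 over all loci. Traf5 rose to 20.4 ± 1.88 FPKM (SD, n = 3) from 4.34 ± 0.59 FPKM (SD, n = 4) at 24 h (log2 change 2.01, limma adjusted p = 1.35e-16). Birc3 fell at 24 h (log2 change -1.24), as did Traf1 (-1.35), whose interaction missed the threshold (limma adjusted p = 0.056). Of 15 further brakes on the pathway, 4 rose and 4 fell at 24 h, again near the 55% of all loci that passed, with a median of 0.01. At 1 h 3 of them rose and 2 fell, beside 5.67% and 3.72% of all loci. Zc3h12a, an RNase that degrades inflammatory mRNAs, rose at 1 h from 13.6 to 41.4 FPKM (log2 change 1.55), and Irak3 (-1.58) and Pdlim2 (-1.06) fell at 24 h.

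Of 10 receptors, 1 rose and 3 fell at 24 h, fewer than the 55% of all loci that passed, with a median of -0.13. Earlier the share that passed was larger than that of all loci. At 1 h 2 rose and 1 fell, beside 9.39%, and at 3 h 3 rose and 3 fell, beside 28.9%. At 6 h 3 rose and 4 fell, beside 41.2%, and 2 were called up and 3 down, beside 5.54%. Cd14, the co-receptor for LPS, was at 18.3 ± 4.62 FPKM (SD, n = 3) against 286 ± 53.05 FPKM (SD, n = 4) at 24 h (log2 change -3.90, limma adjusted p = 1.27e-11), and Tlr2 fell as well (-2.80). Cd40, a receptor that can engage the non-canonical arm, rose at 6 h from 10.8 to 78.6 FPKM (log2 change 2.76, limma adjusted p = 6.59e-10).

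Of 27 known target genes, 21 reached 1 FPKM and were tested. At 1 h 1 rose and 6 fell, at 3 h 3 rose and 9 fell, at 6 h 5 rose and 6 fell, and at 24 h 5 rose and 8 fell. All loci passed at 9.39%, 28.9%, 41.2% and 55% at these times. The shares of targets that passed at 6 and 24 h were therefore not far from those of all loci. With the 2-fold threshold, 1, 2, 4 and 4 targets were called up and 2, 6, 1 and 4 down at these times. All loci were called at 1.49%, 3.88%, 5.54% and 8.5%, so the share of called targets was larger at every time. The medians of the targets were -0.29, -0.53, -0.20 and -0.43, beside -0.02, 0.01, 0.00 and -0.07 over all loci. Il1b, the precursor of IL-1β, fell at 24 h and was at 32.9 ± 12.3 FPKM in controls (SD, n = 4) but 0.58 ± 0.25 FPKM with IL-4 (SD, n = 3; log2 change -4.37, limma adjusted p = 6.65e-07). Ier3, an early response gene, rose at 3 h from 9.26 to 185 FPKM (log2 change 4.19, limma adjusted p = 1.47e-22). Ccl2, a monocyte chemokine, rose at 24 h (log2 change 3.58, limma adjusted p = 0.0065), and its interaction missed the threshold (2.88, limma adjusted p = 0.25). Target genes thus moved in both directions at every time in WT. In Stat6-/- cells no gene of the 6 lists passed, beside 0% of all loci.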

How the data were processed

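RNA-seq was performed on 53 BMDM samples in 18 groups by genotype, treatment and time, read from the sample labels. Per the study's methods and the submitters' processing notes, the authors aligned reads to mm10 with TopHat2 (2.0.7), computed FPKM with Cufflinks (2.0.2) and deposited 1 FPKM table per sample. The annotation is not given in the sources used here, nor is a stranded kit stated. Because each sample's FPKM share a scale, a change in abundant genes shifts the others, and the values are not counts, so no count test was used. Absolute depth is unknown, and no counting interval is given. 4316 estimates that differed from 0 by rounding alone were set to 0. WT replicate 1 with 24 h of IL-4 is not analysed here.

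Tables were joined on locus and symbol. Loci that reached 1 FPKM in any sample entered the test as log2(FPKM + 1), which understates changes of low genes, in limma 3.58.1 (R 4.3.3), with 1 mean per group over all samples, an intensity trend, leaving 35 residual degrees of freedom. All limma tests are two-sided, with Benjamini-Hochberg adjustment over the loci of each comparison. The analysis of variance was adjusted by Tukey's method over 16 groups within a gene, with no adjustment over loci. In a test on simulated data with 100 loci changed by 1.5 and 100 by 2 (log2) among 11146, the WT comparisons recovered 97% to 100% of the smaller changes and 97% to 99% of the larger, and the interactions 89% to 93% and 93% to 94%. The simulated noise was independent between samples, with 1 SD per locus for both genotypes. The changed loci had a mean log2(FPKM + 1) above 2. Recovery where the Stat6-/- replicates differ more, as for Nfkbiz, was not simulated. Fold differences in the text are ratios of mean FPKM, and no pseudocount enters them. Alternatives were a pseudocount of 0.1, no filter or one at 5 FPKM, quantile normalization, median scaling, only the samples compared, a replicate block, no trend, analysis of variance with Tukey's adjustment, no fold threshold, and each replicate left out. Symbols not listed were matched to older names in RefSeq (Otulin as Fam105b, Adgre1 as Emr1), and Ly6g was not matched. Named genes are the 10 members, up to 3 called genes a list with the largest WT change, and the 3 loci most like each member called in WT. The members and lists were chosen with earlier results of these data known.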

Additional observations from a re-analysis of the deposited data

Results flagged for a closer look

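Among 80 sets of 4 WT samples (10 genes in 8 groups), 4 held a sample far from the other 3 by Dixon's test, and chance gives about 1 in 20, so 4 sets. Nfkb2 was at 23.0 FPKM in WT control replicate 2 at 1 h, beside 26.9 to 27.2 FPKM in the others. Nfkbib was at 15.5 FPKM in WT replicate 1 at 0 h, beside 10.5 to 10.7 FPKM, and at 9.42 FPKM in WT replicate 2 with 3 h of IL-4, beside 12.8 to 13.1 FPKM. Nfkbiz was at 1.79 FPKM in WT replicate 2 with 6 h of IL-4, beside 2.36 to 2.41 FPKM.

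For the following members the interaction test in limma separated the responses of the genotypes, given as the WT minus the Stat6-/- log2 change. Rel differed by 2.09 at 1 h, 1.85 at 3 h and 1.23 at 6 h. Nfkb1 differed by 0.56 at 3 h and 0.63 at 6 h. Rela differed by -0.41 at 3 h and -0.42 at 24 h. Nfkbiz differed by -2.84 at 3 h, -2.46 at 6 h and -3.26 at 24 h. At 24 h Nfkb2 differed by -1.17, Relb by -1.57, Nfkbia by -1.13 and Nfkbie by -0.57.

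The WT response differed between times by the same kind of test. From 1 to 3 h that of Nfkb1 was higher by 0.52. From 6 to 24 h the log2 change moved by -0.87 for Nfkb1, -1.31 for Nfkb2, -1.03 for Rel, -1.51 for Relb, -1.04 for Nfkbia, -0.70 for Nfkbie and -0.87 for Tnfaip3.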

How the results depend on the processing

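All 35 WT responses and interactions of members that passed the test kept their sign under each alternative run for them (511 of 511 values), and 478 of these values also passed. The limits are set by 2 samples per Stat6-/- group and by unknown absolute depth. The cause of the shifts below was not tested.

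Without the fold threshold, 5, 5, 5 and 6 members passed for IL-4 in WT at 1, 3, 6 and 24 h (called 2, 2, 2 and 3). All loci passed at 9.39%, 28.9%, 41.2% and 55% at these times. For the interaction at 3 h 4 members passed (called 2), beside 11.2% of all loci. For WT controls at 1 h against 0 h 1 member passed (called 0), beside 2%. For the changes of the WT response from 1 to 3 h and from 6 to 24 h, 1 and 7 passed (called 0 and 4), beside 11.1% and 27.8%. With only the samples compared, 1 member was called for the interaction at 6 h in place of 2 and 1 for the change from 1 to 3 h in place of 0, and 3 for the interaction at 24 h in place of 4. Quantile normalization and median scaling each gave 2 calls for the change from 6 to 24 h in place of 4.

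When 1 replicate was left out, the called members ran from 2 to 3 (IL-4 in WT at 1 h), 1 to 3 (interaction at 1 h), 2 to 3 (3 h), 0 to 2 (6 h, with 0 without WT replicate 2) and 4 to 4 (24 h), 3 to 4 (IL-4 in WT at 24 h), 0 to 1 (Stat6-/- against WT controls), 0 to 1 (change from 1 to 3 h) and 3 to 4 (6 to 24 h). The Tnfaip3 difference between genotypes in controls reversed without Stat6-/- replicate 1, to -0.27, and ran up to 0.36 without replicate 2.

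With the replicate block, 2 members were called for the interaction at 1 h in place of 1 (Rel and Nfkbiz), 1 for the change from 1 to 3 h in place of 0, and 3 for that from 6 to 24 h in place of 4, and no other count of called members changed. With the block, 13 values of single members passed that had otherwise missed the threshold, and 0 were lost. Among them were the interactions of Nfkbiz at 1 h (-1.79, adjusted p = 8.08e-04) and of Tnfaip3 at 1, 3 and 6 h (adjusted p = 2.88e-04, 2.25e-04 and 5.85e-04). Same-numbered samples of IL-4 and control at 1 time correlated above 0.1 in 13 of 15 pairs in WT (lowest 0.027) and in 8 of 8 in Stat6-/-, where groups of 2 give both numbers the same value. Over all pairs of groups, deviations from the group mean correlated on average at 0.223 in WT and 0.714 in Stat6-/- for the same number. For other numbers they did so at -0.0743 and -0.714. As not all WT pairs of IL-4 and control were above 0.1, the numbers were not taken to pair samples. Any difference between numbers therefore stayed in the spread of the main fit. Genotypes could not be compared with the block, because the numbers lie within genotype.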

Other observations

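Some values moved in controls without IL-4 between 0 and 1 h. Nfkbiz was at 18.6 to 21.8 FPKM in WT at 0 h and at 11.1 to 15.4 FPKM in WT controls at 1 h, with no overlap but a log2 change of -0.68 that missed the threshold (limma adjusted p = 0.55; 0.0030 without either Stat6-/- replicate, whose values enter the pooled spread only). In Stat6-/- replicate 1 it was at 30.3 FPKM at 0 h and 11.4 FPKM at 1 h, and in replicate 2 at 32.5 and 26.8 FPKM. Nfkbie was at 20.4 and 12.3 FPKM in Stat6-/- at 0 h and at 12.6 and 11.1 FPKM in the controls at 1 h.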
